A study of Homo sapiens with 21 samples.

Results

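ZNF genes that lie outside chromosome 19 were followed in breast cancer cells exposed to THZ1, which binds covalently to and inhibits CDK7, a kinase that belongs to the initiation factor TFIIH. A gene was a member if its symbol in the array's annotation began with ZNF and a digit and if the human gene annotation (GRCh38.p14) placed it on any chromosome but 19. Of 491 ZNF genes with a probe set of their own, 256 lay outside chromosome 19, and 198 of these had a highest group mean of at least 5.84 on the log2 scale (an intensity of 57.4), which was the median of all values on the arrays and was required of every gene. The other 58 members stayed below that level in all groups and were not tested. At the limit, ZNF141, ZNF79, ZNF34 and ZNF248 entered with highest group means of 5.89, 5.92, 5.95 and 5.97, while ZNF169, ZNF687, ZNF853 and ZNF713 stayed out with 5.81, 5.78, 5.77 and 5.76. Among the 198 kept members 194 were protein coding and 4 were pseudogenes or long non-coding RNAs.

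The study measured poly(A)-primed RNA on 21 PrimeView arrays (Affymetrix) in 12 groups, from 4 lines kept for 6 h in THZ1 at 50 or 250 nM or in its solvent DMSO. MDA-MB-468 and BT-549 are triple negative breast cancer lines, ZR-75-1 is positive for the oestrogen receptor (ER), and T47D carries both that receptor and the progesterone receptor. All lines were unmodified and grown in RPMI-1640 with serum, and there were 2 arrays per dose of the lines MDA-MB-468, ZR-75-1 and T47D, whereas each dose of BT-549 had 1 and was not tested. The sample source field of the ZR-75-1 and T47D arrays names MDA-MB-468, in conflict with their titles and cell line fields. The markers mostly followed the titles. All 7 luminal markers were higher in both ZR-75-1 and T47D than in the other lines with DMSO, 3 of 4 basal markers were highest in MDA-MB-468, and all 4 mesenchymal markers were highest in BT-549. The basal SOX10 was not (74.2 in MDA-MB-468, against 78.7 in ZR-75-1 and 80.8 in T47D), and FN1 of the mesenchymal list was also high in ZR-75-1 (1110.0). ESR1 averaged 442 in ZR-75-1 and 906 in T47D with DMSO, against 30.9 in MDA-MB-468 and 18.4 in BT-549, KRT5 averaged 3505 in MDA-MB-468, and VIM averaged 14440 in BT-549. Of 6 markers of immune cells, blood and endothelium, PTPRC and LYZ were above the array background on 0 of 21 arrays, while CD79A, HBB and PECAM1 were above it on 21 of 21 and CD3E on 20.

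Proteins of the C2H2 zinc finger class carry arrays of short loops, each folded around a zinc ion, and the fingers of one protein together read a stretch of DNA. Many of them join the fingers to a KRAB domain, which recruits TRIM28 and with it the histone methyltransferase SETDB1, and so silence transposable elements and genes. Those on chromosome 19 lie in large clusters that arose by duplication. The members elsewhere include such KRAB proteins along with older, widely conserved regulators, promoter binding proteins, and proteins with a zinc finger that act on RNA, ribosomes or the spindle. The kinase activity of CDK7 phosphorylates the tail of RNA polymerase II and activates the elongation kinase CDK9.

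The deposited values are MAS5 intensities. Their mean lay between 326.4 and 342.8 on the 21 arrays, and the correlation between the 2 arrays of a group was 0.9905 to 0.9934. The same mass of RNA went into each amplification and the array means were near equal, so a change in RNA per cell need not be held in these values. In bulk samples fewer cells of a type and less RNA per cell cannot be told apart. A member was called when its adjusted p was under 0.05 in limma, with Benjamini-Hochberg adjustment over the 12644 genes tested, and changes are log2 differences with their standard error (SE). Levels of different genes are not set against each other, since each probe set has its own response. The probe set chosen for 26 members carries the array maker's suffix for probes that can also bind other transcripts, and that for 30 members the suffix for probes shared by several transcripts, so related ZNF genes may share signal there.

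At 250 nM most of the kept members had lower values than with DMSO in each replicated line. In MDA-MB-468 140 members were called lower and 3 higher, with a background over all genes tested of 30.3% lower and 9.54% higher. In ZR-75-1 167 were called lower and 1 higher, with a background of 42.8% and 9.93%. In T47D 146 were called lower and 1 higher, with a background of 33.7% and 9.61%. The shares of members called lower were thus 70.7%, 84.3% and 73.7% in the 3 lines. At least 2-fold lower were 85 members in MDA-MB-468 (background 10.6%), 107 in ZR-75-1 (18.1%) and 68 in T47D (9.44%). The median log2 change of the members was -0.87 in MDA-MB-468, -1.08 in ZR-75-1 and -0.70 in T47D, beside -0.07, -0.18 and -0.08 over all genes tested. The middle 50% of members lay between -1.38 and -0.25 in MDA-MB-468, between -1.77 and -0.61 in ZR-75-1 and between -1.25 and -0.29 in T47D.

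Array by array, the median log2 value of the 198 members was 6.88 and 7.02 with DMSO, 6.68 and 6.64 at 50 nM and 5.87 and 5.89 at 250 nM in MDA-MB-468. In ZR-75-1 it was 7.02 and 6.98 with DMSO, 6.82 and 6.79 at 50 nM and 5.72 and 5.67 at 250 nM. The T47D arrays had medians of 7.20 and 7.28 with DMSO, 7.03 and 7.03 at 50 nM and 6.21 and 6.32 at 250 nM. In each line both arrays at 250 nM lay below both arrays at 50 nM, which lay below both DMSO arrays. Both 250 nM arrays were below both DMSO arrays for 161 members in MDA-MB-468, 178 in ZR-75-1 and 169 in T47D. The number of members above the background of their array was 174 and 168 at 250 nM in MDA-MB-468, against 190 and 197 with DMSO. It was 166 and 146 at 250 nM in ZR-75-1, against 196 and 195 with DMSO, and 181 and 184 at 250 nM in T47D, against 197 and 198 with DMSO.

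**Figure D1:**
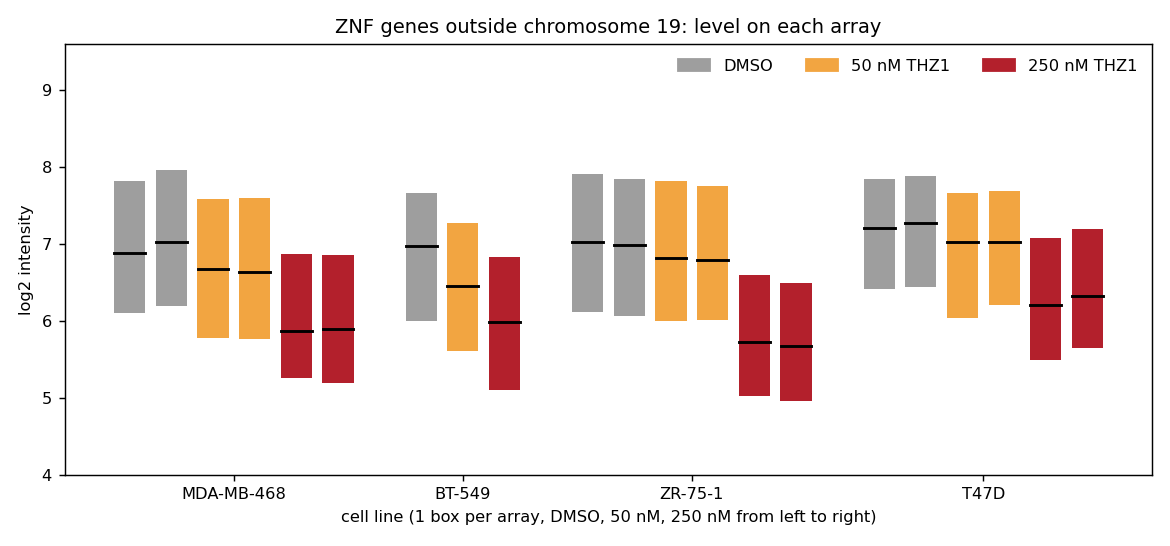
Log2 intensity of the 198 members on each of the 21 arrays, by cell line and dose, with the median and middle 50% of each array. The median of both 250 nM arrays of MDA-MB-468 (5.87 and 5.89) lies below that of its DMSO arrays (6.88 and 7.02), and ZR-75-1 has its lowest medians at 250 nM (5.72 and 5.67).

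These counts depend on how arrays are set against each other. With each array centred on the median of the genes tested, the median change of all genes at 250 nM moved to 0.36 in MDA-MB-468, 0.46 in ZR-75-1 and 0.32 in T47D, and 2039, 2640 and 2181 of all genes were called lower while 7073, 7721 and 6618 were called higher. On that scale 105 members were called lower and 31 higher in MDA-MB-468, 113 and 35 in ZR-75-1, and 104 and 28 in T47D, with member medians of -0.44, -0.43 and -0.30. After quantile normalization 123 members were called lower and 10 higher in MDA-MB-468, 149 and 11 in ZR-75-1, and 126 and 13 in T47D, with medians of -0.64, -0.80 and -0.50. All genes then split into 2890 lower and 3095 higher, 3878 and 4113, and 3054 and 3356 in these lines. Without the filter on low values, 145 of 256 members were called lower in MDA-MB-468, 178 in ZR-75-1 and 152 in T47D, with 3784, 5407 and 4165 of 18132 genes.

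**Figure D2:**
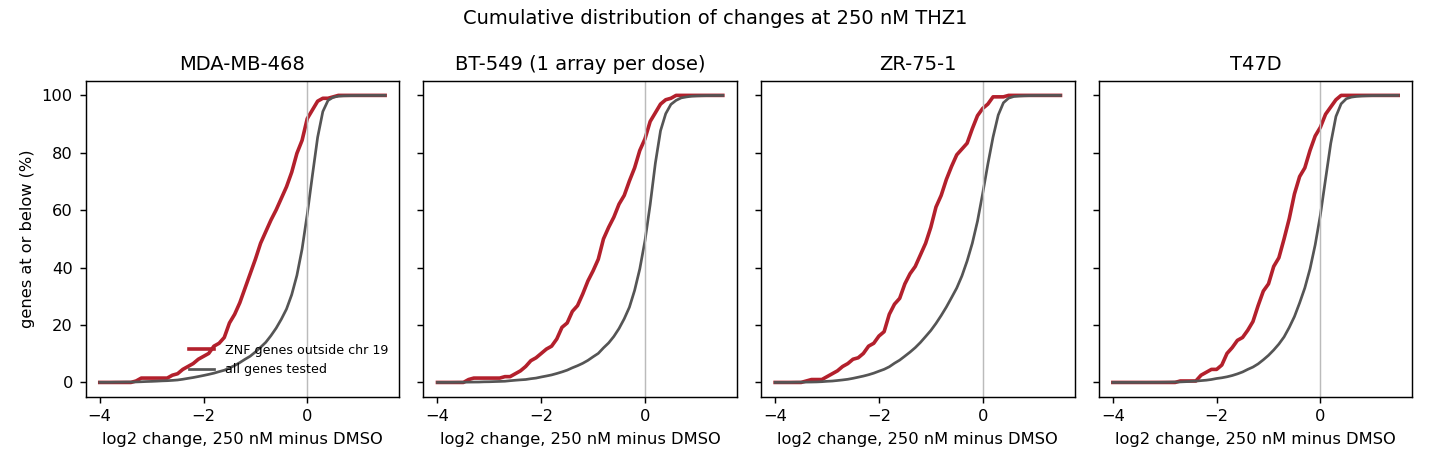
Cumulative share of the 198 members and of the 12644 genes tested at or below each log2 change at 250 nM against DMSO. Each line has a panel, and that of BT-549 rests on 1 array per dose. The members' curve lies to the left in each panel. The medians are -0.87 beside -0.07 for all genes (MDA-MB-468), -1.08 beside -0.18 (ZR-75-1), -0.70 beside -0.08 (T47D) and -0.81 beside 0.0056 (BT-549).

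Among the members with the most negative changes at 250 nM, ZNF217 and ZNF281 stood in the list of each replicated line. ZNF217 (chromosome 20, 53567071 to 53597702) is a breast cancer oncogene of the amplified region 20q and acts with the CtBP and CoREST corepressors. Its intensity in MDA-MB-468 was 899.5 and 1156 with DMSO, 911 and 891 at 50 nM and 91.9 and 107 at 250 nM. In ZR-75-1 it was 2229 and 2047 with DMSO, 2242 and 2118 at 50 nM and 219 and 179 at 250 nM, and in T47D 1362 and 1199 with DMSO, 1148 and 1240.0 at 50 nM and 244 and 282 at 250 nM. Both 250 nM arrays lay far below the other 4 arrays of each line, whereas the 50 nM arrays overlapped those with DMSO or lay close to them. The log2 change at 250 nM was -3.36 ± 0.12 in MDA-MB-468 (SE, adjusted p = 4.2e-12), -3.43 ± 0.12 in ZR-75-1 (adjusted p = 2.1e-12) and -2.29 ± 0.12 in T47D (adjusted p = 6.9e-10).

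ZNF281 (chromosome 1, 200404951 to 200410036) binds GC-rich promoter elements and has been tied to pluripotency and to the epithelial to mesenchymal transition. In MDA-MB-468 its intensity was 676 and 715 with DMSO, 364 and 370.0 at 50 nM and 90.2 and 60.7 at 250 nM. The 3 doses did not overlap there, and the change at 50 nM was already -0.92 ± 0.14 (adjusted p = 0.000235). The ZR-75-1 arrays held 740.4 and 796 with DMSO, 811 and 729.8 at 50 nM and 98.9 and 93.2 at 250 nM, and those of T47D 1313 and 1333 with DMSO, 1149 and 1228 at 50 nM and 177 and 226 at 250 nM. In these ER-positive lines the 50 nM change was 0.0026 and -0.16, neither of them called. At 250 nM ZNF281 fell by 3.23 in MDA-MB-468, 3.0 in ZR-75-1 and 2.73 in T47D on the log2 scale.

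The other members at the low end differed more between lines. ZNF684 fell to 30.9 and 31.4 at 250 nM in MDA-MB-468, just above background, against 284 and 300.0 with DMSO. The size of its log2 change, -3.23 ± 0.22, is thus limited by background. In the same line ZNF398 (-2.67), ZNF212 (-2.63), ZNF184 (-2.53) and ZNF367 (-2.43) followed. ZNF92 was not above background on either 250 nM array of MDA-MB-468 and was at least 4.30-fold lower than with DMSO. In ZR-75-1 the lowest were, after ZNF217, ZNF7 (33.5 and 36.3 at 250 nM, against 365 and 351 with DMSO, change -3.36) and ZNF84 (38.4 and 42.0 at 250 nM, against 324 and 329.6 with DMSO, change -3.02). The 250 nM values of ZNF7 lay only little above background in that line. ZNF165, which is otherwise known as a cancer/testis antigen, was not above background on either 250 nM array there and was at least 6.27-fold lower. ZNF92 fell by 2.94 in ZR-75-1, while ZNF827 (-2.86) and ZNF689 (-2.83) had 1 of 2 arrays not above background. In T47D the list held ZNF764 (-2.38), ZNF200 (-2.36), ZNF367 (-2.35) and ZNF830 (-2.16), together with ZNF485 and ZNF594, which were not above background at 250 nM and were at least 4.70-fold and 3.45-fold lower.

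**Figure D3:**
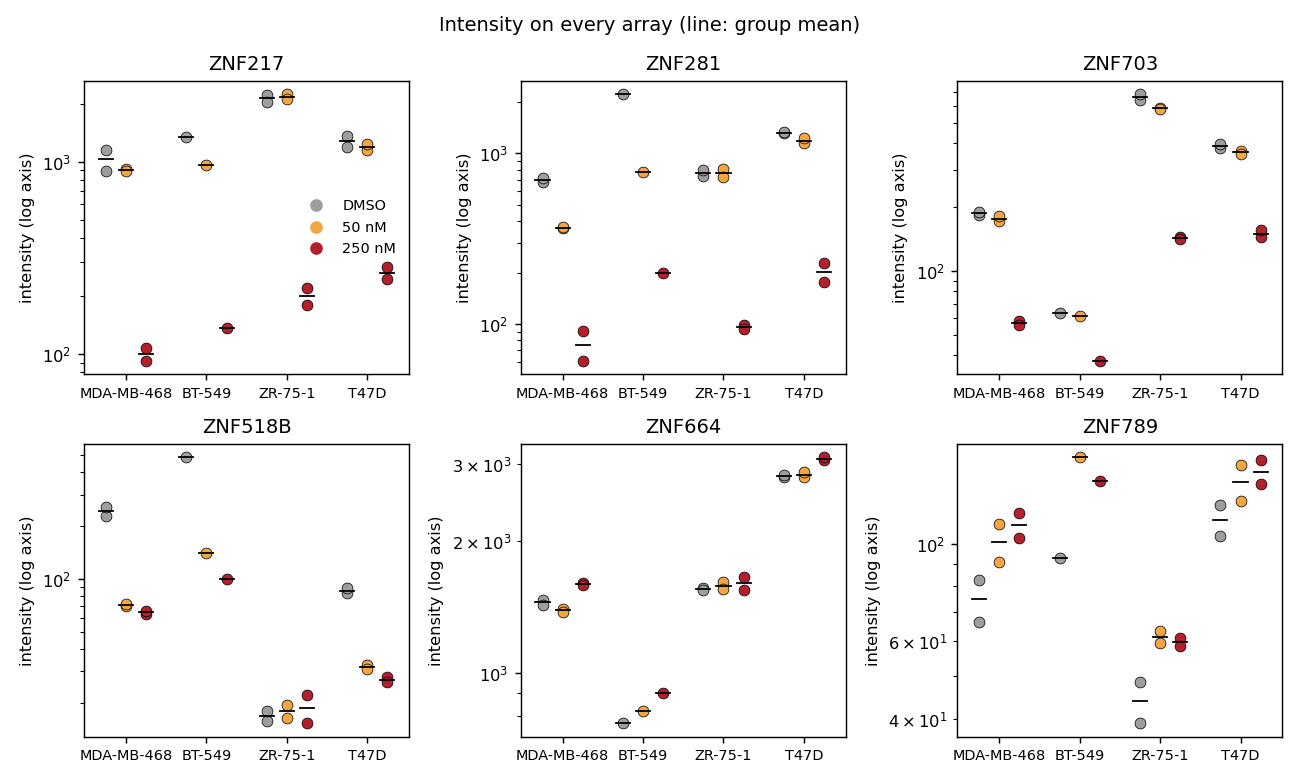
Intensity on a log axis of ZNF217, ZNF281, ZNF703, ZNF518B, ZNF664 and ZNF789 on every array, by cell line and dose (DMSO, 50 nM, 250 nM). The 250 nM points of ZNF217 lie far below the others in ZR-75-1 (log2 change -3.43) and MDA-MB-468 (-3.36), ZNF518B is low already at 50 nM in MDA-MB-468, and both 250 nM points of ZNF789 lie above the DMSO points in each replicated line.

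Promoter windows from RefSeq (GRCh38.p14; 250 bases before to 50 bases after the start site of that table) matched 162 of the 198 members. Among these 162, ZNF217, ZNF281 and ZNF92 had the most negative mean changes at 250 nM over the 3 replicated lines, and ZNF789 had the most positive. Their windows are shown with each searched motif in capitals. ZNF7 had a more negative mean (-2.59) than ZNF92 (-2.46) but no matched window. ZNF217 (chr20:53593790-53594089, minus strand), ZNF281 (chr1:200409987-200410286, minus strand), ZNF92 (chr7:65373605-65373904, plus strand) and ZNF789 (chr7:99472640-99472939, plus strand) are written 5′ to 3′. The ZNF217 window lies inside the span of the gene given above, so its start site is not the outer end of that span.
ZNF217: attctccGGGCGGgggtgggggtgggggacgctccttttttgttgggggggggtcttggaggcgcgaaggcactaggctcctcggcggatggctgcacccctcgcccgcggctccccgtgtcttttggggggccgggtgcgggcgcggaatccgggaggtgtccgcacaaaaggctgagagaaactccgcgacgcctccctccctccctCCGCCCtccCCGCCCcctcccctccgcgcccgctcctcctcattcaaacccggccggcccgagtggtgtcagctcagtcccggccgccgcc
ZNF281: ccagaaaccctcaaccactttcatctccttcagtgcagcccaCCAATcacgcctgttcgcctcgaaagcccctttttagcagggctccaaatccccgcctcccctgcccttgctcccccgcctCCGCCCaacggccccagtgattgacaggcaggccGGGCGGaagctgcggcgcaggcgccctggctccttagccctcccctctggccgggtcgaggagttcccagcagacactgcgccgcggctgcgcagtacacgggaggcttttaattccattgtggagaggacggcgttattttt
ZNF92: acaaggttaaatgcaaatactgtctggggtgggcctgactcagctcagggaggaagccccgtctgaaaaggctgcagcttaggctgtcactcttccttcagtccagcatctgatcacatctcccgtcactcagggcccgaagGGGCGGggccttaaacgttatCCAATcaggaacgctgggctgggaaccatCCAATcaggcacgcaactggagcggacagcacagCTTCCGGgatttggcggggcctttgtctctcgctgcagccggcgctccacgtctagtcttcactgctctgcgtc
ZNF789: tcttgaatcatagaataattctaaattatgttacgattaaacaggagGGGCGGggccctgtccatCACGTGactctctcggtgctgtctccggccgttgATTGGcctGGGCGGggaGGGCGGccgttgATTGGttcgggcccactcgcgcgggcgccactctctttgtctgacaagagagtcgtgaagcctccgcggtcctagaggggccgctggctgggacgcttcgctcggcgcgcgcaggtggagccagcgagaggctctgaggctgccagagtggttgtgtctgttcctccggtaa
Motifs were searched on both strands as exact letters: TATAAA (the TATA box), CCAAT (bound by NF-Y), GGGCGG (Sp1), CCGGAAG (ETS factors), ATGGCGG (YY1), GCATGCGC (NRF1), CACGTG (the E box), ACTACAATT (ZNF143) and TTTGGCGC (E2F). In the ZNF217 window 3 matches were to GGGCGG, and the window had 31 CpG. That of ZNF281 had 1 CCAAT and 2 GGGCGG with 21 CpG, that of ZNF92 had 2 CCAAT, 1 GGGCGG and 1 CCGGAAG with 15 CpG, and that of ZNF789 had 2 CCAAT, 3 GGGCGG and 1 CACGTG with 26 CpG. A match is a run of letters and not a measured binding site.

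CCGGAAG stood in 64 of the 162 member promoters (39.5%), beside 40.4% of those of chromosome 19 ZNF genes, 18.2% of the 10319 promoters of all genes tested and 14.2% of the 15842 coding genes in the table. CCAAT was held by 43.8% of member promoters, beside 52.4% for chromosome 19 ZNF genes and 36.6% for all genes tested. GGGCGG was held by 63.0%, 68.7% and 69.2% in the same order, and TATAAA by 4.32%, 1.81% and 6.12%. The median CpG count per window was 25 for members, 21 for chromosome 19 ZNF genes and 26 for all genes tested. Members with CCGGAAG had median changes at 250 nM of -1.04 in MDA-MB-468, -1.32 in ZR-75-1 and -0.95 in T47D, and the 98 without it -0.81, -1.02 and -0.65. Members with GGGCGG had medians of -1.0, -1.16 and -0.76, and those without it -0.75, -1.08 and -0.69. For CCAAT they were -0.92, -1.17 and -0.77, against -0.89, -1.08 and -0.67. The other way went GCATGCGC (12 members, -0.57, -0.94 and -0.65, against -0.93, -1.14 and -0.73). So did TATAAA (7 members, -0.80, -1.0 and -0.48, against -0.92, -1.13 and -0.74). ATGGCGG and CACGTG were mixed between lines, and ACTACAATT (3 members) and TTTGGCGC (1) went with lower medians. These are descriptions with no test.

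Of the 10 listed regulators of growth and lineage, 7 were kept (ZNF365, ZNF521 and ZNF423 were below the filter), and all 7 were called lower at 250 nM in each replicated line (background 30.3%, 42.8% and 33.7%). Of all 198 members 70.7%, 84.3% and 73.7% were called lower in these lines, which is the nearer comparison for this and the other role lists below. The role lists were chosen with earlier results of these data known. Their median change was -1.72 in MDA-MB-468, -1.29 in ZR-75-1 and -1.25 in T47D. ZNF703, a luminal breast cancer oncogene of the amplified region 8p that acts with Groucho-type corepressors, had an intensity of 641 and 681 with DMSO, 588 and 584 at 50 nM and 144 and 141 at 250 nM in ZR-75-1. In T47D it had 379 and 397 with DMSO, 369.5 and 355 at 50 nM and 144 and 156 at 250 nM, and in MDA-MB-468, where its level was lower, 184 and 189 with DMSO, 172 and 181 at 50 nM and 58.1 and 55.7 at 250 nM. Its change at 250 nM was -1.72 ± 0.07, -2.21 ± 0.07 and -1.37 ± 0.07 in MDA-MB-468, in ZR-75-1 and in T47D, and no 50 nM change was called. ZNF503, the close relative of ZNF703, fell by 1.79, 1.29 and 1.25 in these lines at 250 nM. At 50 nM in MDA-MB-468 it was instead called higher (0.58 ± 0.19, adjusted p = 0.0411), with 249 and 243 at 50 nM, against 149 and 181 with DMSO, but the call was lost with 3 of the 4 omissions of an array (adjusted p up to 0.255).

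ZNF750, which drives epidermal differentiation, had the same opposed pattern in MDA-MB-468, with 111 and 108 with DMSO, 142 and 164 at 50 nM and 56.9 and 60.7 at 250 nM. Its 50 nM arrays lay above, and its 250 nM arrays below, those with DMSO. The changes were 0.48 ± 0.12 at 50 nM (adjusted p = 0.0102) and -0.90 ± 0.12 at 250 nM (adjusted p = 1.49e-05), and the 50 nM call was lost on leaving out either of 2 arrays (adjusted p up to 0.127). ZNF367 fell at 250 nM by 2.43, 2.49 and 2.35 in MDA-MB-468, in ZR-75-1 and in T47D, and its 50 nM change in MDA-MB-468 (-0.65) was 0.07 when all its probe sets were averaged. ZNF462 (-0.23, -0.25 and -0.75), a developmental regulator of chromatin, and ZNF395 (-0.42, -0.77 and -0.30) were also called in each line. With arrays centred on their median, ZNF462 turned positive in MDA-MB-468 and ZR-75-1, ZNF395 in MDA-MB-468 and T47D and ZNF750 in ZR-75-1. The call of ZNF462 in MDA-MB-468 was lost without any 1 of the 4 arrays (adjusted p 0.0559 to 0.159), that in ZR-75-1 without either of 2 (up to 0.0855), and that of ZNF750 in ZR-75-1 without 250 nM replicate 1 (0.0943).

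Of 22 listed promoter binding and chromatin proteins, 21 were kept (ZNF687 was not), and 17, 19 and 17 were called lower at 250 nM in MDA-MB-468, in ZR-75-1 and in T47D (background 30.3%, 42.8% and 33.7%), with median changes of -1.06, -1.16 and -0.65. ZNF143, an activator at many promoters including those of small nuclear RNAs, had 47.1 and 54.5 at 250 nM, against 112 and 107 with DMSO in MDA-MB-468, 63.3 and 50.6 at 250 nM, against 156 and 152 with DMSO in ZR-75-1 and 65.8 and 70.3 at 250 nM, against 105 and 118 with DMSO in T47D. Its changes were -1.11 in MDA-MB-468, -1.44 in ZR-75-1 and -0.71 in T47D. Those of its close relative ZNF76 were -0.041 in MDA-MB-468, -0.38 in ZR-75-1 and 0.11 in T47D, called in ZR-75-1 alone, where the call was lost on leaving out 1 array (adjusted p up to 0.13). ZNF148, the close relative of ZNF281, changed less than it, by -0.40 in MDA-MB-468, -0.64 in ZR-75-1 and -0.52 in T47D. ZNF410, known as a regulator dedicated to the CHD4 gene, had 224 and 210.5 at 250 nM, against 941 and 896 with DMSO in ZR-75-1 (change -2.08 ± 0.09), while its changes in MDA-MB-468 and T47D were -0.67 and -0.67.

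ZNF131 fell by 1.55 in MDA-MB-468, 2.23 in ZR-75-1 and 1.41 in T47D, and ZNF644, a partner of the H3K9 methyltransferases G9a and GLP, by 1.47 in MDA-MB-468, 1.98 in ZR-75-1 and 1.38 in T47D. ZNF827, which brings the NuRD complex to telomeres, changed by -1.58 in MDA-MB-468, -2.86 in ZR-75-1 and -1.82 in T47D. The SUMO ligase ZNF451 (-1.17 in MDA-MB-468, -1.44 in ZR-75-1 and -1.33 in T47D) and ZNF318 (-1.29 in MDA-MB-468, -1.49 in ZR-75-1 and -0.80 in T47D) were also called in each line. Of ZNF592 and ZNF532, which share a complex with the chromatin reader ZMYND8, ZNF592 changed by -0.57 in MDA-MB-468, -0.84 in ZR-75-1 and -0.56 in T47D and was called in each line, and ZNF532 by 0.11 in MDA-MB-468, -0.26 in ZR-75-1 and -0.51 in T47D, not called in MDA-MB-468. ZNF746, a repressor of PGC-1alpha known as PARIS, changed by -1.53 in MDA-MB-468, -1.47 in ZR-75-1 and -0.26 in T47D, not called in T47D. ZNF219 was called in no line (-0.10 in MDA-MB-468, -0.035 in ZR-75-1 and -0.21 in T47D). With arrays centred on their median, ZNF76, ZNF532 and ZNF219 were higher in ZR-75-1 instead (0.26, 0.38 and 0.61), and ZNF148 was at 0.036 in MDA-MB-468 and 0.0074 in ZR-75-1 and ZNF335 at 0.018 in T47D. The ZR-75-1 call of ZNF532 was lost without either of 2 arrays (adjusted p up to 0.217), and so was the T47D call of ZNF335 (up to 0.0835).

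ZNF518B stood apart in this list. In MDA-MB-468 it had 227 and 256 with DMSO, 70.3 and 72.2 at 50 nM and 63.5 and 65.8 at 250 nM, and in T47D 83.2 and 88.8 with DMSO, 32.6 and 30.8 at 50 nM and 27.8 and 26.2 at 250 nM. In both lines the 50 nM arrays were already close to those at 250 nM and far below those with DMSO. The changes at 50 nM were -1.76 ± 0.16 in MDA-MB-468 (adjusted p = 2.24e-06) and -1.44 ± 0.16 in T47D (adjusted p = 4.34e-05). In T47D it was not above background at 250 nM and at least 3.03-fold lower. In ZR-75-1 ZNF518B was not above background on any array (15.7 to 22.0), so its change there carries no level.

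Of 13 listed proteins of RNA, ribosomes, cytoplasm and mitosis, all were kept, and 8, 11 and 9 were called lower at 250 nM in MDA-MB-468, in ZR-75-1 and in T47D (background 30.3%, 42.8% and 33.7%), with medians of -0.37, -0.67 and -0.28. ZNF622, the human relative of a yeast factor that matures the large ribosomal subunit, had 1122 and 969.6 with DMSO, 1161 and 982 at 50 nM and 328 and 319 at 250 nM in MDA-MB-468. Its changes at 250 nM were -1.69 in MDA-MB-468, -1.13 in ZR-75-1 and -0.58 in T47D, each called. The nucleolar protein ZNF330 changed by -1.32 in MDA-MB-468, -1.11 in ZR-75-1 and -0.12 in T47D, not called in T47D. ZNF598, the ubiquitin ligase that marks collided ribosomes, had 148 and 127 at 250 nM, against 270.4 and 230.3 with DMSO in ZR-75-1 (-0.86 ± 0.12, adjusted p = 1.43e-05), and changes of -0.13 and 0.029 in MDA-MB-468 and T47D that were not called. ZNF346, which binds double-stranded RNA, changed by -0.95 in MDA-MB-468, -1.28 in ZR-75-1 and -1.63 in T47D. ZNF638 was lower already at 50 nM, by 0.72 in MDA-MB-468, 0.37 in ZR-75-1 and 0.74 in T47D, and by 0.71 in MDA-MB-468, 1.21 in ZR-75-1 and 0.97 in T47D at 250 nM, with the ZR-75-1 call at 50 nM lost on leaving out either of 2 arrays (adjusted p up to 0.0988). The 50 nM direction of ZNF638 depended on the probe set: of its 6 probe sets, 1 was called higher in MDA-MB-468 and 2 in ZR-75-1.

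ZNF207, which guides the checkpoint protein BUB3 to kinetochores, changed little (-0.37 in MDA-MB-468, -0.58 in ZR-75-1 and -0.25 in T47D), and the T47D call was lost with 3 of the 4 omissions of an array (adjusted p up to 0.144). ZNF326, which couples elongation to splicing in the DBIRD complex, changed by -0.18 in MDA-MB-468, -0.50 in ZR-75-1 and -0.77 in T47D, not called in MDA-MB-468 and lost in ZR-75-1 on leaving out 1 array (adjusted p 0.0532). The p53 target and partner ZNF385A (0.12 in MDA-MB-468, -0.015 in ZR-75-1 and 0.26 in T47D) and the actin-associated LIM protein ZNF185 (0.0067 in MDA-MB-468, -0.0059 in ZR-75-1 and -0.10 in T47D) were called in no line. With arrays centred on their median, ZNF207, ZNF706 and ZNF326 were at or above 0 in MDA-MB-468 (0.061, 0.19 and 0.25) and in ZR-75-1 (0.064, 0.0047 and 0.15), and ZNF106 was at 0.43 in ZR-75-1 and 0.13 in T47D. Weak calls of ZNF706 in MDA-MB-468 and T47D, of ZNF106 in ZR-75-1 and T47D and of ZNF277 in MDA-MB-468 were each lost without at least 1 array (adjusted p up to 0.24, 0.0754, 0.204, 0.0556 and 0.0578).

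**Figure D4:**
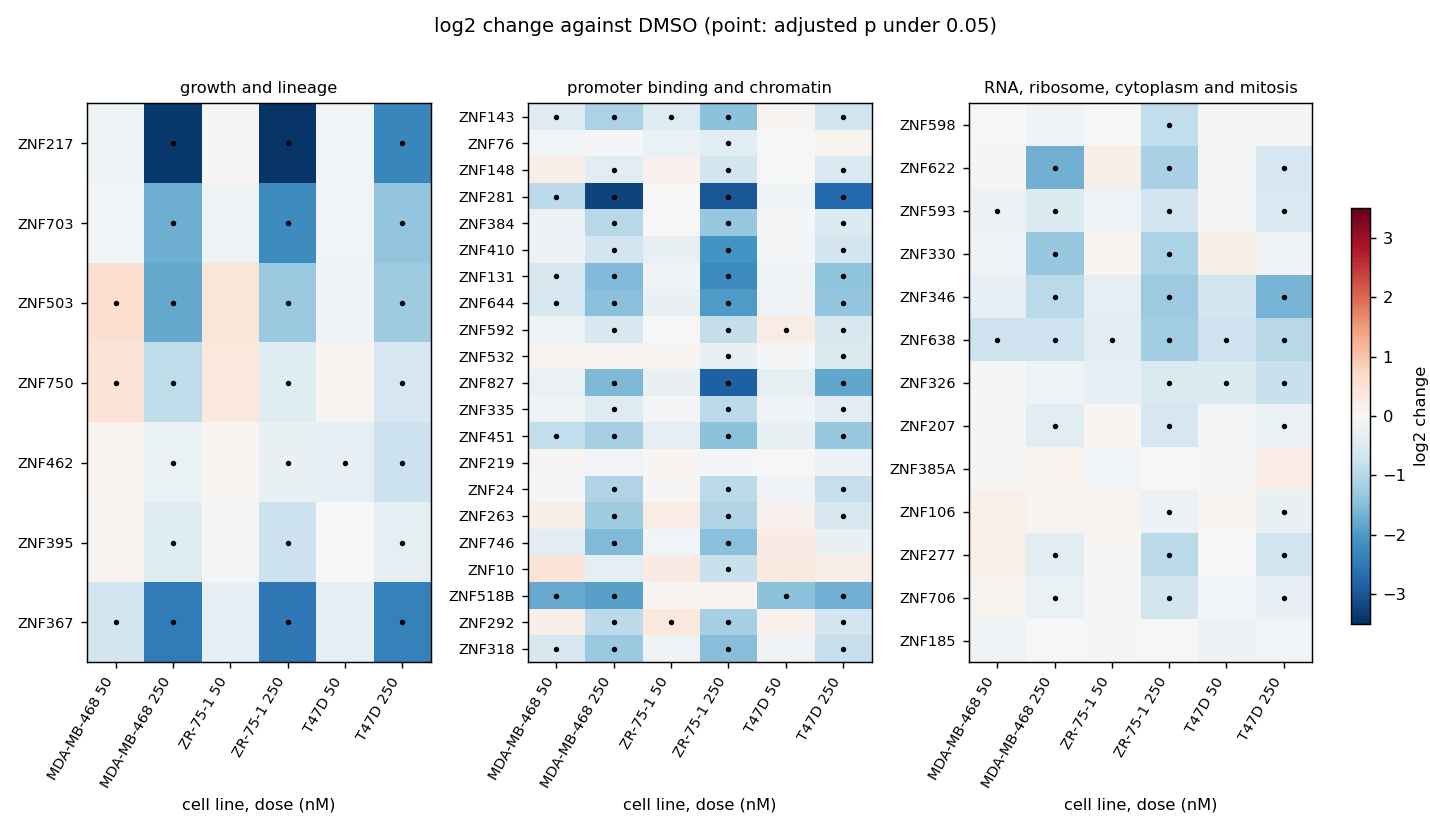
Log2 change against DMSO at 50 and 250 nM of every kept member of the 3 role lists (rows) in the replicated lines (columns), as a colour scale, with a point where the adjusted p was under 0.05. At 250 nM ZNF217 (-3.43 to -2.29), ZNF281 (-3.23 to -2.73) and ZNF367 (-2.49 to -2.35) are deep in colour in each line, and ZNF385A and ZNF185 carry no point in any column.

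Across lines, 122 of 198 members (61.6%) were called lower at 250 nM in all 3 replicated lines, with a background of 23.0% of all genes tested. Another 35 were called lower in 2 lines, 17 in 1 line and 24 in none. The changes of the 198 members correlated between lines with their own DMSO arrays at r = 0.76 (Spearman 0.76) for MDA-MB-468 and ZR-75-1, 0.68 (0.67) for MDA-MB-468 and T47D, and 0.78 (0.78) for ZR-75-1 and T47D, a description over probe sets that share the arrays of a line. The 24 members not called lower in any line were ZNF138, ZNF300, ZNF517, ZNF488, ZNF213, ZNF771, ZNF516, ZNF512B, ZNF219, ZNF496, ZNF185, ZNF436-AS1, ZNF512, ZNF513, ZNF204P, ZNF785, ZNF843, ZNF655, ZNF467, ZNF70, ZNF664, ZNF385A, ZNF618 and ZNF789.

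The few members called higher at 250 nM had small changes. ZNF789 had 66.5 and 82.9 with DMSO, 111 and 91.0 at 50 nM and 117 and 103 at 250 nM in MDA-MB-468 and 39.1 and 48.6 with DMSO, 63.2 and 59.6 at 50 nM and 61.2 and 58.6 at 250 nM in ZR-75-1. Both 250 nM arrays were above both DMSO arrays in these lines. The changes were 0.57 ± 0.15 (adjusted p = 0.00714) and 0.46 ± 0.15 (adjusted p = 0.0187), beside 0.36 in T47D (adjusted p = 0.0667). Each call of ZNF789 was lost on leaving out DMSO replicate 1 or 250 nM replicate 1 (adjusted p up to 0.0966 in MDA-MB-468 and 0.184 in ZR-75-1). ZNF664 had 1605 and 1589 at 250 nM, against 1468 and 1433 with DMSO in MDA-MB-468 (change 0.14, adjusted p = 0.0326) and 3061 and 3112 at 250 nM, against 2809 and 2831 with DMSO in T47D (0.13, adjusted p = 0.0414). The pseudogene ZNF204P had 152 and 166 at 250 nM, against 114 and 122 with DMSO in MDA-MB-468 (0.43, adjusted p = 0.0469). The calls of ZNF664 and ZNF204P were lost without any 1 of their 4 arrays, and the count of members called higher fell to 0 in MDA-MB-468 without DMSO replicate 1 or 250 nM replicate 1, in ZR-75-1 without the same 2, and in T47D without DMSO replicate 1, DMSO replicate 2 or 250 nM replicate 2.

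At 50 nM fewer members were called, and the lines differed in number. In MDA-MB-468 72 (36.4%) were called lower and 6 (3.03%) higher (background 14.6% and 4.42%). The median change there was -0.28 beside -0.06 over all genes. In ZR-75-1 17 (8.59%) were called lower and 4 (2.02%) higher (background 5.68% and 2.79%), with a median of -0.10. In T47D 29 (14.6%) were called lower and 2 (1.01%) higher (background 7.56% and 1.99%), with a median of -0.12. The share called lower in ZR-75-1 was thus not far above the background. The shares called higher lay below the background in each line, so nothing is read from those counts, and single members called higher are given as description. The count of 72 fell to 46 without 50 nM replicate 2, the count of 17 to 10 without DMSO replicate 1 and to 11 without 50 nM replicate 2, and the count of 29 to 15, 18 and 16 without DMSO replicate 1, DMSO replicate 2 and 50 nM replicate 1. In these lines 13 members (6.57%) were called lower at 50 nM in all 3, with a background of 2.83%: ZNF764, ZNF594, ZNF232, ZNF609, ZNF189, ZNF770, ZNF362, ZNF117, ZNF641, ZNF239, ZNF638, ZNF251 and the pseudogene ZNF252P. Whether lines differed at 50 nM was not tested.

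ZNF764, ZNF594 and ZNF117 were among the lowest at 50 nM. ZNF764 had 85.5 and 89.9 with DMSO, 31.8 and 30.1 at 50 nM and 23.4 and 26.9 at 250 nM in MDA-MB-468, 178 and 198 with DMSO, 113 and 122 at 50 nM and 32.2 and 25.2 at 250 nM in ZR-75-1 and 197 and 200.3 with DMSO, 108 and 116 at 50 nM and 38.3 and 38.3 at 250 nM in T47D. The arrays of each line were ordered by dose, except that the 2 THZ1 doses lay close in MDA-MB-468, where neither 250 nM array was above background. The 50 nM changes of ZNF764 were -1.50 in MDA-MB-468, -0.68 in ZR-75-1 and -0.83 in T47D. ZNF594 had 119 and 124 with DMSO, 64.0 and 53.6 at 50 nM and 19.8 and 18.1 at 250 nM in ZR-75-1 and 102 and 94.0 with DMSO, 37.7 and 40.3 at 50 nM and 18.2 and 20.2 at 250 nM in T47D, and in MDA-MB-468 it was not above background on either 50 nM array and at least 2.08-fold lower. Its 50 nM changes in ZR-75-1 and T47D were -1.05 ± 0.15 and -1.33 ± 0.15. ZNF117 had 134 and 123 with DMSO, 49.1 and 58.0 at 50 nM and 41.7 and 31.4 at 250 nM in ZR-75-1, and its 50 nM changes were -1.40 in MDA-MB-468, -1.27 in ZR-75-1 and -0.98 in T47D, with the T47D call lost without DMSO replicate 1 or 50 nM replicate 1 (adjusted p up to 0.0628). ZNF251 (-0.73) and ZNF778 (-0.68) completed the lowest in ZR-75-1, and both calls were lost on leaving out either of 2 arrays (adjusted p up to 0.0703 and 0.0768).

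Most members called higher at 50 nM lost the call when 1 array was left out, and ZNF654 did not. ZNF654 had 73.3 and 72.5 with DMSO, 107 and 106 at 50 nM and 51.2 and 50.2 at 250 nM in MDA-MB-468 and 177 and 203 with DMSO, 272 and 268 at 50 nM and 114 and 118 at 250 nM in ZR-75-1, with 50 nM changes of 0.55 ± 0.09 (adjusted p = 0.000413) and 0.51 ± 0.09 (adjusted p = 0.00228), and each call held without any 1 of its 4 arrays. ZNF695 had 49.9 and 52.6 with DMSO, 101 and 79.9 at 50 nM and 44.4 and 43.9 at 250 nM in ZR-75-1 and 40.7 and 48.9 with DMSO, 68.0 and 80.5 at 50 nM and 48.6 and 63.2 at 250 nM in T47D. In both lines the 50 nM arrays lay above those of the other doses. The 50 nM changes were 0.81 ± 0.16 (adjusted p = 0.00435) and 0.73 ± 0.16 (adjusted p = 0.00663), with calls lost without 50 nM replicate 1 in ZR-75-1 (adjusted p 0.0606) and on leaving out either of 2 arrays in T47D (up to 0.0955). In MDA-MB-468 its change at 50 nM was 0.43 (adjusted p = 0.0657), and at 250 nM it was not above background and at least 1.83-fold lower. In MDA-MB-468 ZNF354B (0.63), ZNF273 (0.59), ZNF503 (0.58) and ZNF654 (0.55) were the highest, and in ZR-75-1 ZNF654 (0.51), ZNF436 (0.50) and ZNF292 (0.36) followed ZNF695. In T47D ZNF592 (0.26) was the other member called. The calls of ZNF436 and ZNF592 were lost without any 1 of 4 arrays, those of ZNF354B, ZNF273 and ZNF503 with 3 of the 4 omissions, and that of ZNF292 with 2. In MDA-MB-468 the count of 6 called higher became 1 without 50 nM replicate 2, 2 without DMSO replicate 1 and 3 without 50 nM replicate 1. The count of 4 in ZR-75-1 became 1 without 50 nM replicate 1 and 2 without DMSO replicate 2, and the count of 2 in T47D became 0 without DMSO replicate 1 or 50 nM replicate 2 and 1 without either of the others.

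Between the doses, 250 nM against 50 nM, 109 members were called lower and 5 higher in MDA-MB-468 (background 23.2% and 5.73%), with a median of -0.49. In ZR-75-1 161 were called lower and 0 higher (background 41.7% and 6.64%), with a median of -1.0, and in T47D 129 lower and 0 higher (27.2% and 4.59%), with a median of -0.60. At an unadjusted p under 0.05 in limma, 0 members were higher in ZR-75-1 and 1 in T47D, and with arrays centred on their median 41 and 21 were called higher, beside 7654 and 5601 of the 12644 genes tested. Leaving out 1 array gave 1 member called higher in ZR-75-1 (without 50 nM replicate 1, 50 nM replicate 2 or 250 nM replicate 1) and in T47D (without 50 nM replicate 2). Both doses of a line were set against the same DMSO arrays, so their changes share that error.

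The difference between lines in the 250 nM change was tested directly. Subtracting the mean change of the ER-positive ZR-75-1 and T47D, the change in MDA-MB-468 was called negative for 20 members and positive for 43 (background 5.12% and 13.9%), with a median of 0.10 beside 0.06 over all genes. Without MDA-MB-468 DMSO replicate 1 the 43 became 24. At the negative end stood ZNF672 (-1.39 ± 0.19), above background on every array. It had 44.1 and 43.0 at 250 nM, against 197 and 184 with DMSO in MDA-MB-468, where the doses lay far apart, 38.6 and 36.4 at 250 nM, against 68.0 and 52.8 with DMSO in ZR-75-1, and 77.8 and 111 at 250 nM, against 152 and 169.7 with DMSO in T47D. Its changes were -2.13 in MDA-MB-468, -0.68 in ZR-75-1 and -0.79 in T47D. The low DMSO level of ZNF672 in ZR-75-1 limits the fall there, and one as large as in MDA-MB-468 could not be measured in that line. In T47D, where ZNF672 started higher, it also fell less than in MDA-MB-468. At the positive end ZNF641 (1.23) was well detected in MDA-MB-468 (106 and 107 at 250 nM, against 129 and 159 with DMSO) and fell further in ZR-75-1 (30.6 and 30.4 at 250 nM, against 124 and 132 with DMSO), where 1 of the 250 nM arrays was not above background, with changes of -0.43 in MDA-MB-468, -2.07 in ZR-75-1 and -1.25 in T47D. The other members at both ends rested on values not above background, so their fitted differences are not measured sizes and have no order. ZNF684 (-1.36) was not above background at 250 nM in ZR-75-1, ZNF695 (-1.19) at 250 nM in MDA-MB-468, and ZNF518B (-1.13) on any ZR-75-1 array or at 250 nM in T47D. ZNF597 (1.36) was not above background on any MDA-MB-468 array, with 22.7 and 15.9 at 250 nM, against 20.2 and 18.4 with DMSO, nor at 250 nM in the ER-positive lines. ZNF620 (1.34) was above it on 1 of 6 MDA-MB-468 arrays, with 20.1 and 18.4 at 250 nM, against 16.1 and 25.1 with DMSO, and not at 250 nM in ZR-75-1, and ZNF594 (1.14) was not above it at 250 nM in any line. ZNF597 and ZNF620 passed the filter through the ER-positive lines, and no fall could be measured in MDA-MB-468, where they were at background with DMSO or close to it.

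Between the ER-positive lines, the change in ZR-75-1 minus that in T47D was called negative for 71 members and positive for 5 (background 19.8% and 2.44%), with a median of -0.36 beside -0.12 over all genes. The 71 became 47 without T47D 250 nM replicate 2, and the 5 became 3 without T47D 250 nM replicate 1. ZNF84 (-1.78 ± 0.15, adjusted p = 5.89e-07) had 38.4 and 42.0 at 250 nM, against 324 and 329.6 with DMSO in ZR-75-1 and 147 and 133 at 250 nM, against 324 and 337 with DMSO in T47D. The DMSO arrays of both lines were alike, and the 250 nM arrays of ZR-75-1 lay below those of T47D. ZNF697 (-1.68) had 39.6 and 49.8 at 250 nM, against 158 and 158 with DMSO in ZR-75-1 and 56.6 and 69.2 at 250 nM, against 58.9 and 82.2 with DMSO in T47D, where the doses overlapped. ZNF3 (-1.54) and ZNF609 (-1.49) followed. On the positive side stood ZNF747 (0.91) and ZNF830 (0.62), above background on every array of both lines. The fitted differences of ZNF518B (1.80), not above background on any ZR-75-1 array or at 250 nM in T47D, and of ZNF396 (1.07), not above it at 250 nM in ZR-75-1 and on 1 of 2 such T47D arrays, are not measured sizes. The call of ZNF396 was lost with 5 of 8 omissions (adjusted p up to 0.164) and that of ZNF830 with 2 (up to 0.0575).

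**Figure D5:**
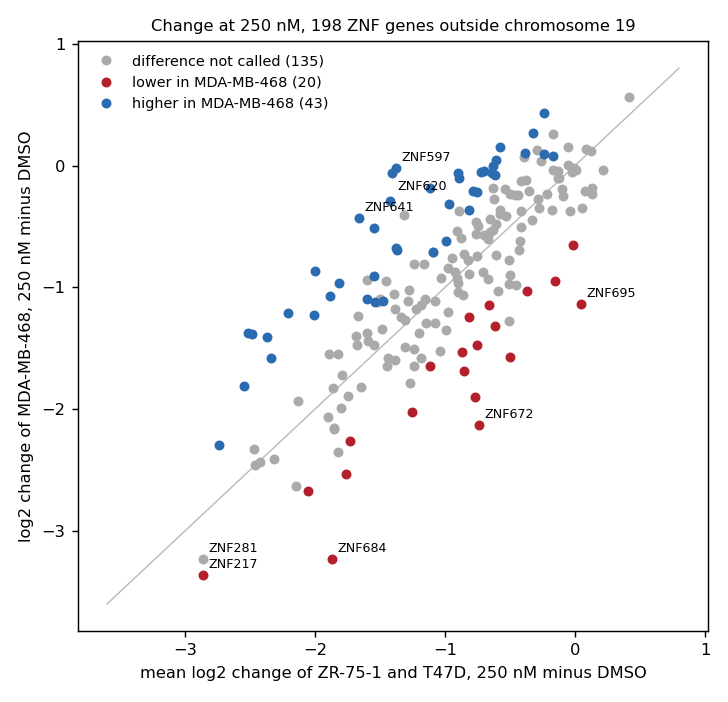
Log2 change of the 198 members at 250 nM in MDA-MB-468 plotted against the mean over ZR-75-1 and T47D, with members whose difference between lines was called in colour, some of them labelled, and the line of equal change. ZNF672 lies on the side where MDA-MB-468 fell further (-2.13 in that line) and ZNF641 on the other (-0.43), while the labelled ZNF684, ZNF695, ZNF597 and ZNF620 rest on values not above background in at least 1 line.

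With DMSO alone, the level in MDA-MB-468 minus the mean of ZR-75-1 and T47D was called lower for 79 members and higher for 56 (background 34.4% and 33.1%), with a median of -0.11 beside -0.0055 over all genes. ZNF469, a gene of cornea and connective tissue, had 419 and 467 in MDA-MB-468, against 57.0 and 46.3 in ZR-75-1 and 54.4 and 59.3 in T47D (3.03 ± 0.11). ZNF512 (1.87) was also higher, and ZNF22 (2.55) had 27.1 and 28.8 in ZR-75-1, just above background. The fitted difference of ZNF518B (2.67) is not a measured size, since it was not above background in ZR-75-1. ZNF275 had 32.8 and 35.7 in MDA-MB-468, against 286 and 276 in ZR-75-1 and 137 and 137 in T47D (-2.52 ± 0.10). It passed the filter in the ER-positive lines, while its DMSO mean in MDA-MB-468 was under the filter level. Also lower were ZNF287 (-2.08), ZNF711 (-2.05, not above background on 1 of 2 MDA-MB-468 arrays), a partner of the histone demethylase PHF8, and ZNF718 (-1.80). ZNF275 changed by -0.08 at 250 nM in MDA-MB-468, and by -0.88 in ZR-75-1. Since it was already close to background with DMSO in MDA-MB-468, a fall as large as that in ZR-75-1 could hardly be measured there.

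For BT-549 a single array was made per dose, and its differences have no replicate check. The median log2 value of the members was 6.97 with DMSO, 6.45 at 50 nM and 5.99 at 250 nM. At 50 nM 27 members (13.6%) were at least 2-fold lower and 0 at least 2-fold higher than with DMSO (3.24% and 0.174% of all genes), with a median difference of -0.37. At 250 nM 77 (38.9%) were at least 2-fold lower and 0 higher (8.94% and 0.182% of all genes), with a median of -0.81 beside 0.0056 over all genes, and 168 of 198 lay below 0. ZNF281 had 2220.0 with DMSO, 782 at 50 nM and 199 at 250 nM, a difference of -3.48 at 250 nM. ZNF217 had 1343 with DMSO, 962 at 50 nM and 136 at 250 nM, a difference of -3.31. ZNF7 (-3.47) and ZNF12 (-2.77) were the others at the low end, and ZNF789 (0.58), ZNF117 (0.55), ZNF618 (0.44) and ZNF395 (0.37) were the highest. ZNF117, which fell in the replicated lines, had 54.1 with DMSO, 52.1 at 50 nM and 79.4 at 250 nM. The correlation of the members' differences in BT-549 with the changes in MDA-MB-468 was 0.82 (Spearman 0.81), with ZR-75-1 0.72 (0.71) and with T47D 0.68 (0.63), over the same 198 members.

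Set beside the members, the ZNF genes on chromosome 19 had 185 of 235 above the filter, and 156, 144 and 144 of them were called lower at 250 nM in MDA-MB-468, in ZR-75-1 and in T47D (84.3%, 77.8% and 77.8%, with a background of 30.3%, 42.8% and 33.7%). Their median changes were -1.15, -1.38 and -1.0. At least 2-fold lower were 107, 119 and 92 (57.8%, 64.3% and 49.7%, with a background of 10.6%, 18.1% and 9.44%). At 50 nM 78, 12 and 26 of the chromosome 19 genes were called lower (42.2%, 6.49% and 14.1%), with a background of 14.6%, 5.68% and 7.56%, so that the share in ZR-75-1 lay near the background. In BT-549 96 of the 185 were at least 2-fold lower at 250 nM (51.9%, beside 8.94% of all genes), with a median of -1.07. Of the 69 ZBTB, ZSCAN and ZKSCAN genes 50 were kept. At 250 nM 39, 40 and 37 of them were called lower (78.0%, 80.0% and 74.0%), with medians of -1.08, -1.28 and -0.90. In levels with DMSO, 26 chromosome 19 genes were called lower and 90 higher in MDA-MB-468 than in the ER-positive lines (14.1% and 48.6%). Of the members elsewhere, 79 and 56 were called (39.9% and 28.3%), beside 34.4% and 33.1% of all genes tested. The members' shares thus lay nearer to those of all genes than the shares of the chromosome 19 genes did. The lists were set side by side with no test between them.

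The corepressors through which KRAB and other ZNF proteins act had median changes smaller than those of the members and near those of all genes tested. Of 29 listed, 12 were called lower and 3 higher at 250 nM in MDA-MB-468, 15 and 5 in ZR-75-1, and 11 and 1 in T47D, beside 30.3% lower and 9.54% higher, 42.8% and 9.93%, and 33.7% and 9.61% of all genes tested. The list medians were -0.08, -0.23 and -0.16, beside -0.07, -0.18 and -0.08 over all genes tested. Nothing is read from medians and counts this near to the background, and single genes are given as description. SETDB1, the H3K9 methyltransferase that KRAB proteins recruit, changed by -0.78, -1.72 and -1.0 in the 3 lines in that order, TASOR, a subunit of the HUSH silencing complex, by -0.54, -0.84 and -1.29, and its partner MORC2 by -0.90, -0.99 and -0.92, all called. CTBP2, a corepressor partner of ZNF217, changed by -0.64, -1.12 and -0.93, also called in each line. TRIM28, the direct partner of the KRAB domain, changed by 0.17, 0.20 and 0.17 and was called higher in ZR-75-1, and HDAC1 by 0.29, 0.44 and 0.32, called higher in each. CBX1, CBX3, HDAC2, ATRX, DNMT3A and EHMT2 were called in no line at 250 nM.

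In the genome the members were spread widely, with 27 on chromosome 16, 24 on chromosome 7 and 17 on chromosome 1. On chromosome 16 19, 20 and 20 members were called lower at 250 nM in MDA-MB-468, in ZR-75-1 and in T47D, on chromosome 7 18, 20 and 17, and on chromosome 1 13, 14 and 10, with the background of 30.3%, 42.8% and 33.7%. Of the 198, 95 had another ZNF gene within 100 kb and 103 had none. Their median changes at 250 nM were -0.87 and -0.87 in MDA-MB-468, -1.06 and -1.11 in ZR-75-1, and -0.81 and -0.65 in T47D, and 67, 80 and 70 of the 95 were called lower, against 73, 87 and 76 of the 103. The members' median gene length was 22.6 kb, against 29.1 kb for the coding genes tested. Across the members length and change at 250 nM had a Spearman correlation of -0.0014, -0.05 and 0.02 in the 3 lines, beside -0.07, -0.14 and -0.17 across all genes. Probe sets of a member can disagree: among members with several probe sets, 0 of 103 called lower in MDA-MB-468 had another probe set called higher, 2 of 124 in ZR-75-1 (ZNF33A and ZNF652) and 4 of 110 in T47D (ZNF106, ZNF33A, ZNF396 and ZNF407).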

How the data were processed

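PrimeView 3' arrays of 21 samples were analysed from the series' value table. The values are intensities that the authors deposited as MAS5 output, per the submitters' processing notes, which give no version, and the sources used here do not state the scale factor between arrays. RNA was extracted with DNase treatment, spiked with ERCC standards in proportion to cell number and primed with oligo(dT), per the labels' protocols, and the spike-ins were not used here. Of 49395 probe sets, 44994 had 1 gene symbol, 1832 several and 2569 none. The probe set with the highest mean stood for its gene, and 12644 of 18132 genes passed the filter (highest group mean log2 of at least 5.84). Intensities under 1 were set to 1 before log2. Nothing was rescaled. Background is the mean of 23 background probe sets on each array. limma 3.58.1 (R 4.3.3) fitted 9 group means over the 18 arrays of MDA-MB-468, ZR-75-1 and T47D, with moderated variances with a trend (9 residual and 6.18 prior degrees of freedom) and Benjamini-Hochberg adjustment per comparison.

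The members and lists were chosen with earlier results of these data known. Named were the 8 lowest and 4 highest called members per line at 250 nM and 4 and 4 at 50 nM whose arrays did not overlap with DMSO, every member of the role lists, the 4 lowest and 4 highest per line difference, and 4 and 4 for BT-549. The labels do not say that the 2 arrays of a group came from separate cultures. The p-values thus rest on the spread between such arrays, possibly technical spread, and the number of arrays limits the precision. Where 1 array is left out of a pair, the lone array is assumed to vary like the other groups. On data simulated for MDA-MB-468 at 250 nM (12644 genes), the fit called 50 of 50, 49 of 50 and 32 of 50 genes with true changes of -2, -1 and -0.5 and 48 of 50 with a change of 1, with 11 false calls. Only those genes were changed in the simulation, with independent normal noise. Far more genes were called in the data, so these counts do not measure the power of that comparison. Alternatives were median centring, quantile normalization, a pseudocount of 16, no filter or a higher one, the mean of all probe sets, no variance trend, the replicate block and each array left out. Protein sequences were not used here.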

Additional observations from a re-analysis of the deposited data

Results flagged for a closer look

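The 250 nM change differed between lines, by a test of the difference itself in limma, for the members named here. MDA-MB-468 minus the mean of ZR-75-1 and T47D was -1.39 for ZNF672 (adjusted p = 9.18e-05) and 1.23 for ZNF641 (3.75e-05), which was not above background on 1 of the 250 nM arrays of ZR-75-1. For ZNF672 the low DMSO level in ZR-75-1 limits the fall that can be measured there. ZR-75-1 minus T47D was -1.78 for ZNF84 (adjusted p = 5.89e-07), -1.68 for ZNF697 (6.74e-05), -1.54 for ZNF3 (6.71e-06) and -1.49 for ZNF609 (9.25e-07). It was 0.91 for ZNF747 (adjusted p = 0.00577) and 0.62 for ZNF830 (0.0122), whose call was lost with 2 of 8 omissions of an array.

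The fit also called members that were not above background in a line that enters the difference, so that the values are no measured sizes and carry no order. For MDA-MB-468 minus the ER-positive lines these were ZNF684 (-1.36, at background at 250 nM in ZR-75-1), ZNF695 (-1.19, at 250 nM in MDA-MB-468), ZNF518B (-1.13, on every ZR-75-1 array and at 250 nM in T47D), ZNF597 (1.36, on every MDA-MB-468 array and at 250 nM in the others), ZNF620 (1.34, on 5 of 6 MDA-MB-468 arrays and at 250 nM in ZR-75-1) and ZNF594 (1.14, at 250 nM in each line). For ZR-75-1 minus T47D they were ZNF518B (1.80) and ZNF396 (1.07, at background at 250 nM in ZR-75-1), and the call of ZNF396 was lost with 5 of 8 omissions.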

How the results depend on the processing

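The counts of members called lower at 250 nM kept within 1.5 times their value under the alternatives tried, and so did those at 50 nM under the processing alternatives. Counts of members called higher moved most. With each array centred on its median they were 20, 31 and 42 in MDA-MB-468 at 50 nM, at 250 nM and between the doses, 7, 35 and 41 in ZR-75-1, and 4, 28 and 21 in T47D. Quantile normalization gave 12, 10 and 16 in MDA-MB-468, 11 at 250 nM and 10 between the doses in ZR-75-1, and 13 and 6 in T47D. Without the filter the counts were 1 (MDA-MB-468 at 250 nM), 2 (ZR-75-1 at 250 nM) and 1 (T47D at 50 nM), and with a filter 1 log2 unit higher 2 (ZR-75-1 at 50 nM) and 1 (T47D at 50 nM). With the mean of all probe sets they were 1 in MDA-MB-468 at 250 nM, 1 in ZR-75-1 between the doses, and 1 and 0 in T47D at 50 and 250 nM. A pseudocount of 16 gave 8 between the doses in MDA-MB-468 and 2 in T47D at 250 nM, and a fit without a variance trend gave 8 and 0. With the replicate block T47D had 1 member called higher at 50 nM and 2 at 250 nM; ZNF204P, ZNF436 and ZNF592 lost their calls (adjusted p 0.0629, 0.0534 and 0.0551), and no other count moved by over 1.5 times. The deviations of same-numbered arrays from their group means had correlations of -0.22 to 0.29 over 9 pairs of groups, and with 2 numbers per group and no label that ties them they were not taken as pairs. With the DMSO numbers of ZR-75-1 crossed, the block gave 17 lower and 3 higher at 50 nM. With centred arrays the difference of ZR-75-1 and T47D had 45 members lower and 11 higher, while over all genes 2498 lower and 309 higher became 1265 and 1957 and the median became 0.13. The BT-549 medians became -0.16 and -0.51 at 50 and 250 nM with centred arrays, -0.26 and -0.64 with quantile normalization, -0.30 and -0.59 with the pseudocount and -0.32 and -0.67 with all probe sets.

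Leaving out 1 array at a time gave 46 to 60 members lower and 1 to 5 higher in MDA-MB-468 at 50 nM, 0 to 2 higher at 250 nM, 10 to 14 lower and 1 to 4 higher in ZR-75-1 at 50 nM, 0 to 1 higher at 250 nM and between the doses, 15 to 22 lower and 0 to 1 higher in T47D at 50 nM, and 0 to 1 higher at 250 nM and between the doses. The line differences ranged over 24 to 45 higher for MDA-MB-468 minus the ER-positive lines and 47 to 71 lower and 3 to 7 higher for ZR-75-1 minus T47D. Of 1671 values of named members under processing alternatives, 1529 kept direction and side of the threshold, 70 lost their call, 16 gained one and 56 turned sign. The sign turned with centred arrays in MDA-MB-468 at 50 nM ZNF703 (0.076), in ZR-75-1 at 250 nM ZNF750 (0.23), ZNF462 (0.39), ZNF76 (0.26), ZNF148 (0.0074), ZNF532 (0.38), ZNF219 (0.61), ZNF326 (0.15), ZNF207 (0.064), ZNF385A (0.63), ZNF106 (0.43), ZNF706 (0.0047), ZNF185 (0.64), in MDA-MB-468 at 250 nM ZNF462 (0.20), ZNF395 (0.018), ZNF76 (0.39), ZNF148 (0.036), ZNF219 (0.33), ZNF10 (0.090), ZNF598 (0.31), ZNF326 (0.25), ZNF207 (0.061), ZNF277 (0.066), ZNF706 (0.19), in T47D at 250 nM ZNF395 (0.089), ZNF335 (0.018), ZNF219 (0.18), ZNF746 (0.13), ZNF330 (0.27), ZNF207 (0.15), ZNF106 (0.13), ZNF706 (0.11), ZNF185 (0.29). With quantile normalization it turned in ZR-75-1 at 50 nM ZNF217 (-0.0059), ZNF281 (-0.025), in MDA-MB-468 at 50 nM ZNF703 (0.021), in MDA-MB-468 at 250 nM ZNF462 (0.094), ZNF76 (0.28), ZNF219 (0.099), ZNF598 (0.19), in ZR-75-1 at 250 nM ZNF462 (0.042), ZNF76 (0.054), ZNF532 (0.0065), ZNF219 (0.38), ZNF385A (0.30), ZNF106 (0.19), ZNF185 (0.29), in T47D at 250 nM ZNF219 (0.11), ZNF330 (0.14), ZNF185 (0.14). With the mean of all probe sets it turned in T47D at 50 nM ZNF703 (0.076), in MDA-MB-468 at 50 nM ZNF367 (0.071), in ZR-75-1 at 250 nM ZNF219 (0.11), ZNF185 (0.14), in T47D at 250 nM ZNF746 (0.010), ZNF185 (0.053). Of 960 values with 1 array left out, 840 kept direction and side, 100 lost their call, 4 gained one and 16 turned sign: ZNF217 in MDA-MB-468 at 50 nM (-0.36 to 0.0024), ZNF217 in ZR-75-1 at 50 nM (-0.032 to 0.090), ZNF281 in ZR-75-1 at 50 nM (-0.073 to 0.079), ZNF518B in ZR-75-1 at 250 nM (-0.14 to 0.39), ZNF598 in MDA-MB-468 at 250 nM (-0.33 to 0.079), ZNF598 in T47D at 250 nM (-0.021 to 0.079), ZNF326 in MDA-MB-468 at 250 nM (-0.41 to 0.050), ZNF385A in MDA-MB-468 at 250 nM (-0.027 to 0.27), ZNF385A in ZR-75-1 at 250 nM (-0.067 to 0.036), ZNF185 in MDA-MB-468 at 250 nM (-0.13 to 0.14), ZNF185 in ZR-75-1 at 250 nM (-0.054 to 0.042). The centring and quantile settings move all arrays by construction, and other causes were not tested. With 2 arrays per group, changes of members near background are bounds.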
